A study of Mus musculus with 24 samples.

Results

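The genes described here are 10 markers of oligodendrocyte precursor cells: the transcription factors Sox10, Olig1, Olig2, Nkx2-2 and Sox8, the receptors Pdgfra and Gpr17, the proteoglycan Cspg4, and Lhfpl3 and Bcas1. They were chosen by name as markers of this cell type, with earlier results of these data known. They are 10 of the 55177 genes to which the transcripts of the series were assigned. For each gene the estimated counts of all its transcripts were summed in each of 24 RNA sequencing libraries from mouse cortical cultures. The series asked how neurons at rest and after depolarization depend on Smarcc2, which is part of the BAF family of chromatin remodelling complexes.

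Cortex came from embryos at embryonic day 16.5 (E16.5) and the cultures are labelled as primary neurons. Per the labels' protocols, the cortex of 1 embryo was a biological replicate, and every culture spent the night before harvest in 1 µM tetrodotoxin (TTX), a sodium channel blocker, and 100 µM D-AP5, an NMDA receptor blocker. Depolarization was by 50 mM KCl for 30 min. At 7 days in vitro (DIV7) 2 resting and 2 depolarized cultures of wild-type neurons were given 0.1% DMSO. Their labels name no guide RNA, and their RNA was selected for poly(A). At DIV18 all cultures carried a CRISPR guide RNA, and total RNA was sequenced after removal of ribosomal RNA. The non-targeting control (NT) had 2 resting and 2 depolarized libraries. The other 16 libraries came from Smarcc2 knockout (KO) cultures: with an empty vector (3 at rest, 3 under KCl), with wild-type Smarcc2 added back (WT addback; 2 at rest, 3 under KCl), with Smarcc2 carrying the S586E substitution (3 at rest) or with the S586A substitution (2 under KCl). The labels do not say which share of the cells in a KO culture was edited.

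Oligodendrocyte precursors are dividing glial progenitors of the central nervous system that mature into the cells that make myelin. Olig2 and Olig1 are basic helix-loop-helix factors that specify the lineage, Sox10 maintains its identity and later drives myelin genes, and Pdgfra is the receptor through which platelet-derived growth factor keeps the precursors dividing. Cspg4 encodes the NG2 proteoglycan on their surface, while Gpr17 and Bcas1 mark cells that have begun to differentiate. BAF-type complexes move nucleosomes with energy from ATP and are known to take part in the differentiation of this lineage.

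Promoter sequences are shown for 4 of the genes because the results below separate them. At rest Pdgfra and Cspg4 were lower in KO cultures with vector than in the control, while Lhfpl3 and Sox8 were close to it. A promoter here is the 300 bases from 250 before to 50 after the start of the RefSeq gene on build GRCm38.p6, and 6 of the 10 genes matched the table of 32851 promoters. Capitals mark CANNTG, the core that basic helix-loop-helix factors bind, and ACAAAG or ACAATG, cores that Sox factors bind, searched on both strands. The Pdgfra promoter (chr5:75152001-75152300, plus strand) held 2 CANNTG matches. The Cspg4 promoter (chr9:56864854-56865153, plus strand) held none of these motifs. The Lhfpl3 promoter (chr5:22745804-22746103, plus strand) held 2 CANNTG matches and the Sox8 promoter (chr17:25570637-25570936, minus strand) held 1. Of all promoters in the table, 72.3% held CANNTG, 18.7% held ACAAAG and 12.6% held ACAATG, so a match describes the sequence and no more.
Pdgfra: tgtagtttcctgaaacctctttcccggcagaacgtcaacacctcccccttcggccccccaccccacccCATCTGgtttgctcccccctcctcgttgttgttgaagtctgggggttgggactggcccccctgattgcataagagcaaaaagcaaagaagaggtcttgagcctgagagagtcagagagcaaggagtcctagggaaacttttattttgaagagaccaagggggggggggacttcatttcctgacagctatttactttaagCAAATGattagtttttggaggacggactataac
Cspg4: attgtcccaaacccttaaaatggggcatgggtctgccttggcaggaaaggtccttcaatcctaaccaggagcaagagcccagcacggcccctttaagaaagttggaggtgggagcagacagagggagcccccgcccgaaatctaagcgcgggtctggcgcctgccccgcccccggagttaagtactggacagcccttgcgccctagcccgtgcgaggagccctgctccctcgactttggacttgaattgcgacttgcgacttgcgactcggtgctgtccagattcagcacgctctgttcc
Lhfpl3: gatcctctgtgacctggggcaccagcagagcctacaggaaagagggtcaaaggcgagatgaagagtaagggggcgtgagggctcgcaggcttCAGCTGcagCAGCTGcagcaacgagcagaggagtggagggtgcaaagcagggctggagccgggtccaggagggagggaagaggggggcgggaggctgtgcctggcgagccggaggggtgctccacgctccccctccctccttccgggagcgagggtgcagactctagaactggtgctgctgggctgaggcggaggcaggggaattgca
Sox8: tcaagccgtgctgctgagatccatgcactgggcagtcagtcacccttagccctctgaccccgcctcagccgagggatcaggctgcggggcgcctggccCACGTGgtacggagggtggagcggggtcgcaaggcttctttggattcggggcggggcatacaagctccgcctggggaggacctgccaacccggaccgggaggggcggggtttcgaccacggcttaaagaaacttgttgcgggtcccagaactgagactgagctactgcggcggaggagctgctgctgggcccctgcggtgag

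On GENCODE M21 (GRCm38), Olig2 (chr16:91225457-91228677) and Olig1 (chr16:91269772-91271933) are neighbours on the plus strand of chromosome 16, and each has 1 annotated transcript. Pdgfra (chr5:75152292-75198215) and Lhfpl3 (chr5:22746059-23275597) lie on the plus strand of chromosome 5, and Cspg4 (chr9:56865033-56899870) on that of chromosome 9. Sox10 (chr15:79154908-79165240), Nkx2-2 (chr2:147177546-147194243), Bcas1 (chr2:170346991-170427845) and Sox8 (chr17:25565892-25570686) lie on minus strands. Over all libraries, the leading protein-coding transcript of Pdgfra took 74.6% of its counts and that of Cspg4 took 82.9%. The Sox10 counts were shared mainly between 2 protein-coding transcripts (59.8% and 36.2%), whose reads the counting program had to divide.

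The estimated counts per library summed to between 14510199 and 24024959 for DIV18 cultures and to between 24536056 and 30135576 for DIV7 cultures. Smarcc2 checked the labels: in normalised counts scaled to a common library size (CPM), its mean was 251 in resting and 278 in depolarized NT cultures and 53.6 and 52.2 in the vector cultures. WT addback raised it to 786 at rest and 907 under KCl, and it stood at 1225 with S586E and 1322 with S586A. At DIV18 all 10 precursor genes entered the tests, and at DIV7 6 of 10 did. Gpr17 and Nkx2-2 reached at most 0.228 and 0.307 CPM in any KO library. These 2 genes passed the filter on low counts only through NT libraries, where they were higher. Their calls against NT are therefore not independent of that filter and add no separate support. "Called" stands for an adjusted p below 0.05 in the two-sided quasi-likelihood F test of edgeR, with Benjamini-Hochberg adjustment over all genes tested.

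In the resting NT cultures all 10 genes were detected in both libraries, as they also were in some KO libraries. Lhfpl3 and Sox8 did not share the profile of the other 8 over the libraries, so the name of the set describes these 2 genes less well in these data. Per length (TPM, reads scaled by transcript length to a fixed total), the order of the mean levels was Olig1 at 12.9, Lhfpl3 at 6.70, Olig2 at 5.33, Sox8 at 5.23, Pdgfra at 3.89, Cspg4 and Bcas1 both at 2.06, Sox10 at 1.87, Nkx2-2 at 0.667 and Gpr17 at 0.428. The ranges of the 2 libraries overlapped for Olig2 and Sox8 and for Sox10 (0.947 and 2.79 TPM) with Cspg4 and Bcas1. That of Nkx2-2 (0.190 and 1.14 TPM) overlapped with those of Sox10 and Gpr17, so these neighbours had no clear order. The summed TPM of the 10 genes was 34.4 and 47.8 in these libraries, against 1871 and 1841 for 10 neuron markers. In the DIV7 cultures the set was split. Olig1 (20.3 TPM at rest), Lhfpl3 (18.8 TPM) and Olig2 (3.07 TPM) were present, but Pdgfra had a mean of 0.111 TPM and Sox10 of 0.028 TPM. The defining surface receptor and Sox10 were thus at or near 0 at DIV7 while Olig1 and Lhfpl3 were not. DIV7 and DIV18 libraries were made from different RNA fractions and normalised separately, so their levels are given side by side without a test.

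At rest most of the precursor markers were lower in KO cultures with vector than in NT. The labels name a vector or an addback for every KO culture and neither for NT. In a comparison with NT, the knockout and the added construct therefore cannot be told apart. Of the 10 genes, 6 were called lower in KO with vector than in NT at rest (Sox10, Gpr17, Pdgfra, Bcas1, Cspg4 and Olig1) and none higher, where 3.77% of all 20940 genes tested were called lower. Nkx2-2 and Olig2 had the same sign and did not pass, and Lhfpl3 and Sox8 stood close to the control. The median log2 difference of the 10 genes was -2.55, against 0.02 for all genes tested. In a bulk culture fewer cells of a type and less RNA per cell cannot be told apart.

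Sox10, the factor that maintains the lineage, was counted at 65 and 183 in the resting NT libraries (2.76 and 8.40 CPM) and at 0 in all 3 vector libraries. A count of 0 over the group allows up to 3 counts, so the level was at least 97.1-fold lower (adjusted p = 4.76e-04, edgeR). Gpr17, a receptor of cells leaving the precursor state, followed the same course: 1.53 and 3.44 CPM in NT and 0 in each vector library. From 111 counts against 0, it was at least 43.4-fold lower (adjusted p = 0.00831, edgeR). These genes separated the groups completely, and the vector cultures held no counted read of either.

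Pdgfra, the growth factor receptor, measured 19.67 and 30.28 CPM in the NT libraries and 0.92, 1.00 and 0.06 CPM in the vector libraries. Its log2 difference was -5.18 (SE 0.76, adjusted p = 9.53e-04, edgeR), and the mean of the vector group was 2.64% of that of NT. Every vector library lay below both controls by more than an order of magnitude. Bcas1, a protein of cells that start to myelinate, fell from 4.46 and 5.92 CPM to 0.54, 0 and 0.51 CPM (log2 difference -3.90, SE 0.80, adjusted p = 0.00787, edgeR). Cspg4, the NG2 proteoglycan, fell less far. It measured 13.89 and 21.34 CPM in NT and 3.02, 3.27 and 2.04 CPM with vector, a log2 difference of -2.65 (SE 0.37, adjusted p = 5.57e-04, edgeR). Every vector library was below both controls for these genes.

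The Olig factors showed a smaller shift. Olig1 was at 23.19 and 35.97 CPM in NT and at 10.34, 4.06 and 2.23 CPM with vector, a log2 difference of -2.40 (SE 0.51, adjusted p = 0.0101, edgeR). Olig2, whose gene neighbours that of Olig1, was at 12.79 and 16.20 CPM in NT and at 10.34, 6.38 and 2.67 CPM with vector. The groups did not overlap, but the spread within the vector group was nearly 4-fold and the log2 difference of -1.15 (SE 0.52) did not pass (adjusted p = 0.214, edgeR). Nkx2-2, a homeodomain factor of the lineage, was rare throughout, with 0.42 and 1.28 CPM in NT and 0.05, 0.16 and 0.25 CPM with vector (log2 difference -2.44, adjusted p = 0.0798, edgeR). Low counts limit what can be said of it. In 8 of the 10 genes every vector library was below both NT libraries, which was so for 18.2% of all genes.

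Lhfpl3 and Sox8 did not follow the others. Lhfpl3, a tetraspan membrane protein, measured 20.18 and 22.85 CPM in NT and 21.16, 19.31 and 22.42 CPM with vector, a log2 difference of -0.04 (SE 0.20, adjusted p = 0.941, edgeR). Sox8, a relative of Sox10, measured 14.48 and 17.57 CPM in NT and 19.01, 16.35 and 9.36 CPM with vector, a log2 difference of -0.10 (SE 0.30, adjusted p = 0.894, edgeR). For both genes the groups overlapped. Without the second resting NT library, which was the higher of the 2 for all 10 genes, 3 of the 6 calls held (Sox10, Pdgfra and Cspg4). Leaving out any other library of this comparison kept all 6. Gpr17 was lost in DESeq2, Bcas1 with length offsets and Olig1 when only these groups were fitted.

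**Figure D1:**
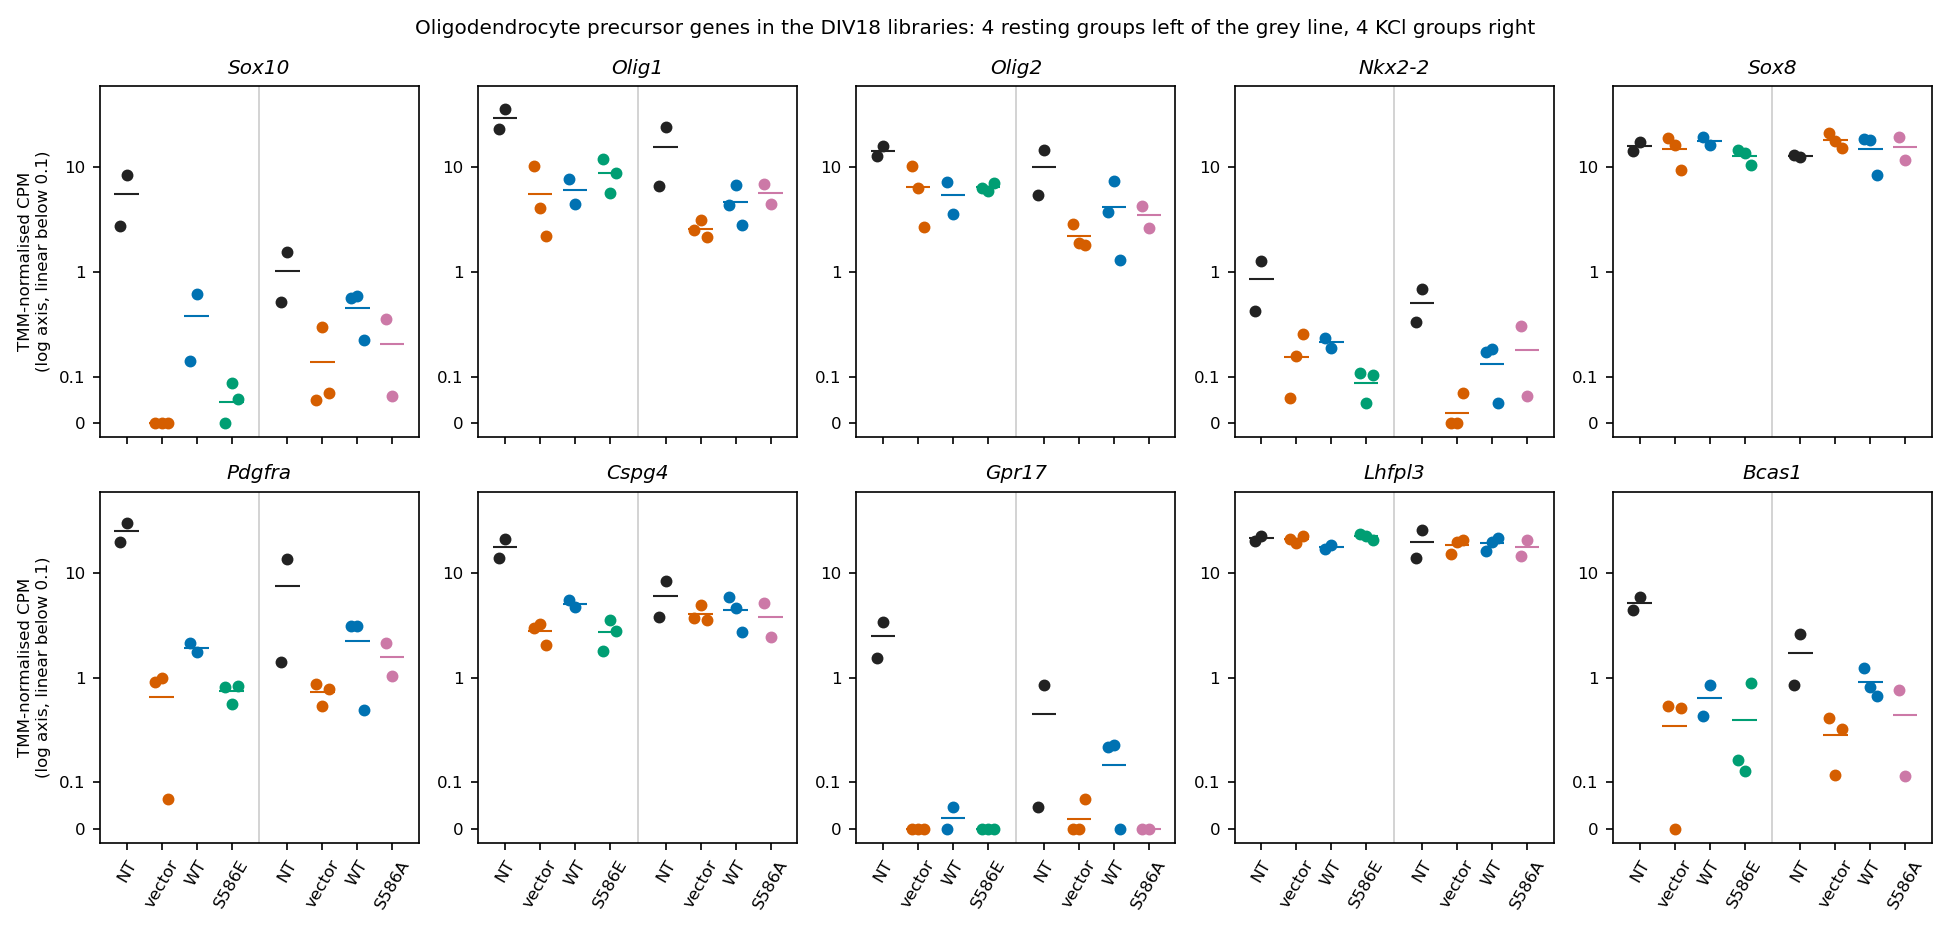
Level of each of the 10 genes in CPM (y axis, log scale above 0.1 and linear below it, the same for all genes) in each of the 20 DIV18 libraries, grouped by construct (x axis) with resting groups left and KCl groups right of the grey line, a point per library and a line at each group mean. The resting NT libraries stand above all 16 KO libraries for 8 genes, as they do for 3.67% of all genes, while Lhfpl3 (20.18 and 22.85 CPM in NT at rest) and Sox8 lie at similar levels in all DIV18 groups.

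The S586E protein did not bring the markers to the level of NT at rest. Against NT, 6 of 10 were called lower (Sox10, Pdgfra, Cspg4, Nkx2-2, Gpr17 and Bcas1) and none higher, where 1.74% of all genes were called lower. The median log2 difference was -2.96, against 0.01 for all genes. Pdgfra was at 0.82, 0.56 and 0.84 CPM, below both controls (log2 difference -5.08, SE 0.75, adjusted p = 0.00299, edgeR). Sox10 was counted 3 times over the 3 libraries against 248 times in NT, a ratio of 110 (95% counting interval 37.3 to 538, adjusted p = 0.00281, edgeR). Gpr17 was at 0 in all 3 libraries and so at least 49.3-fold lower (adjusted p = 0.0187, edgeR). The other called genes had smaller differences.

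Cspg4 was at 1.81, 3.56 and 2.82 CPM with S586E (log2 difference -2.68, adjusted p = 0.00223, edgeR), Bcas1 at 0.16, 0.13 and 0.89 CPM (-3.72, adjusted p = 0.0210, edgeR) and Nkx2-2 at 0.11, 0.04 and 0.10 CPM (-3.25, adjusted p = 0.0443, edgeR). Olig1, at 12.14, 5.68 and 8.83 CPM, missed the threshold with a log2 difference of -1.74 (SE 0.50, adjusted p = 0.0655, edgeR), and Olig2 had -1.17 (adjusted p = 0.242). Lhfpl3 (0.06) and Sox8 (-0.32) were again near the control, and in 8 genes the libraries did not overlap with those of NT, against 19.0% of all genes. The count rests on 1 control library: without the second resting NT library none of the 10 genes passed in edgeR, and without S586E replicate 1 or replicate 2 the count was 3 (Sox10, Pdgfra and Cspg4). Nkx2-2 was lost in DESeq2, with length offsets, with only these groups fitted and without S586E replicate 3, Gpr17 in DESeq2 and Bcas1 with length offsets.

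With wild-type Smarcc2 added back the same 8 genes were again lower in value at rest, and none passed the test. Here 0 of 10 were called by edgeR (adjusted p from 0.101 to 0.966), and DESeq2 called 3 (Sox10, Pdgfra and Cspg4). In edgeR 8 of 10 had an unadjusted p under 0.05, all lower, against 1650 of all 20940 genes in either direction. Few genes of any kind passed in this comparison of 2 libraries with 2, with 0.0287% of all genes called lower. Pdgfra measured 2.13 and 1.76 CPM, 7.79% of the NT mean (log2 difference -3.68, SE 0.79, adjusted p = 0.101, edgeR). Sox10 measured 0.14 and 0.62 CPM (-3.85, SE 0.83, adjusted p = 0.101, edgeR), and Gpr17 was counted once over both libraries against 111 times, a ratio of 103 (counting interval 18.1 to 4112). Both addback libraries lay below both controls for these 3 genes.

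Cspg4 stood at 5.50 and 4.70 CPM with WT addback (log2 difference -1.79, SE 0.40, adjusted p = 0.102, edgeR) and Olig1 at 7.69 and 4.46 CPM (-2.28, SE 0.58, adjusted p = 0.174, edgeR). Bcas1 (0.43 and 0.85 CPM), Olig2 (7.26 and 3.56 CPM) and Nkx2-2 (0.24 and 0.19 CPM) were also below both NT libraries. The libraries did not overlap for 9 of 10 genes, all but Sox8, against 20.9% of all genes. The median log2 difference was -2.12, against 0.00 for all genes. The outcome of the test moved with the method: 7 genes passed without the filter on low counts, 3 with the replicate number as a block and 3 when only these 4 libraries were fitted.

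Averaging rest and KCl in each construct gave more libraries per side and was chosen after the data were seen. In that contrast 8 of 10 genes were called lower with vector than in NT, all but Lhfpl3 and Sox8, where 7.00% of all genes were. With WT addback 5 of 10 were called lower, against 1.41% of all genes: Pdgfra (-2.69, adjusted p = 0.00952), Olig1 (-2.01, adjusted p = 0.0107), Sox10 (-2.50, adjusted p = 0.0267), Cspg4 (-1.12, adjusted p = 0.0388) and Gpr17 (adjusted p = 0.0484), all in edgeR. Both contrasts share the NT libraries. They were run in 1 setting only, so how these calls depend on single libraries was not tested. In the KCl comparison alone, leaving out the second depolarized NT library turned 3 of the 5 genes positive with WT addback. These were Pdgfra (0.67), Gpr17 (1.53) and Cspg4 (0.20).

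**Figure D2:**
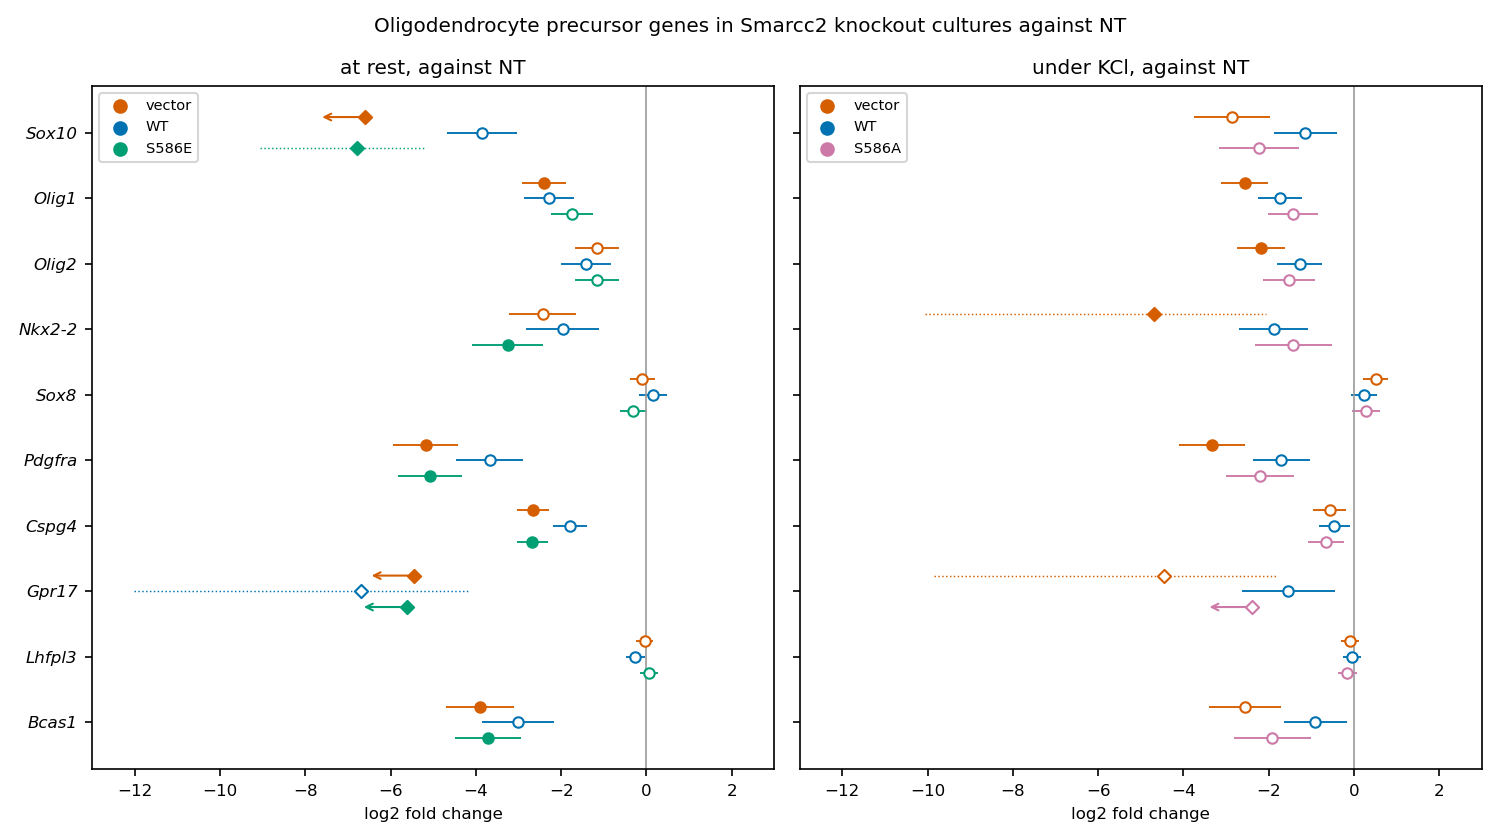
Log2 difference from NT (x axis) of each of the 10 genes for vector, WT addback, S586E and S586A in the state in which each was sequenced, with bars for 1 SE and filled points for genes called by edgeR; diamonds are ratios of summed counts for groups of 0 to 3 counts, with an arrow at a lower bound on the fold and a dotted line for the 95% counting interval. Pdgfra lies at -5.18 with vector, -5.08 with S586E and -3.68 with WT addback at rest, and Lhfpl3 and Sox8 lie between -0.32 and 0.50 in each comparison.

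Under KCl the vector cultures were also lower, with another set of genes past the threshold. Pdgfra, Olig1, Olig2 and Nkx2-2 were called lower than in NT (4 of 10, none higher), where 1.95% of all genes were called lower. The median log2 difference was -2.56, against 0.02 for all genes. Olig1 measured 6.68 and 24.39 CPM in NT and 2.51, 3.14 and 2.15 CPM with vector (-2.57, SE 0.56, adjusted p = 0.0199, edgeR). Olig2 measured 5.45 and 14.73 CPM in NT and 2.87, 1.90 and 1.82 CPM with vector (-2.18, SE 0.57, adjusted p = 0.0456, edgeR). Both genes had vector libraries below both controls, and the controls differed from each other more than the vector libraries did.

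Pdgfra stood at 1.42 and 13.50 CPM in the depolarized NT libraries and at 0.87, 0.53 and 0.78 CPM with vector (-3.33, SE 0.77, adjusted p = 0.0277, edgeR). Nkx2-2 was counted 20 times in NT and once with vector, a ratio of 26.0 (counting interval 4.15 to 1076, adjusted p = 0.0420, edgeR). Sox10 was at 0.52 and 1.55 CPM in NT and at 0.05, 0.30 and 0.07 CPM with vector, which did not pass (-2.86, adjusted p = 0.0994, edgeR). Nor did Bcas1 (-2.56, adjusted p = 0.119), Gpr17 (17 counts against 1, adjusted p = 0.181), Cspg4 (-0.58, adjusted p = 0.476) or Lhfpl3 (-0.10, adjusted p = 0.865), all in edgeR. Sox8 had the opposite sign, with 13.22 and 12.49 CPM in NT and 21.20, 17.85 and 15.51 CPM with vector. Its log2 difference of 0.50 did not pass (SE 0.30, adjusted p = 0.435, edgeR).

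In 6 genes the vector libraries under KCl were all below NT, against 18.5% of all genes. The 4 calls are fragile: none passed in edgeR without the second depolarized NT library, or without any 1 of the 3 vector libraries, and 3 passed without the first NT library. Without the second NT library the median log2 difference was -1.18. Nkx2-2 did not pass in DESeq2, with length offsets or with only the groups compared, nor Olig2 with length offsets.

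WT addback and S586A showed no called gene under KCl. For WT addback 0 of 10 passed in edgeR, DESeq2 called 0, and 0.124% of all genes were called lower. In edgeR 4 of 10 had an unadjusted p under 0.05 (all lower), against 2300 of all 20940 genes in either direction. For S586A 0 of 10 passed in edgeR, DESeq2 called 0, and 0.239% of all genes were called lower. Here 6 of 10 had an unadjusted p under 0.05 in edgeR (all lower), against 2472 of all 20940 genes in either direction. The median log2 differences from NT were -1.21 with WT addback and -1.48 with S586A, against 0.02 and -0.01 for all genes. These medians rest on the second depolarized NT library: without it they were 0.15 and -0.44, and Pdgfra (0.67), Gpr17 (1.53), Lhfpl3 (0.45), Cspg4 (0.20) and Bcas1 (0.10) with WT addback and Lhfpl3 (0.34), Pdgfra (0.18) and Cspg4 (0.000859) with S586A turned positive. Pdgfra measured 3.15, 3.15 and 0.49 CPM with WT addback and 2.15 and 1.04 CPM with S586A, within the range of the NT libraries in part. Olig1 measured 4.36, 6.75 and 2.82 CPM with WT addback and 6.90 and 4.46 CPM with S586A. Its log2 differences were -1.74 (SE 0.52, adjusted p = 0.196) and -1.44 (SE 0.59, adjusted p = 0.338), both in edgeR.

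The depolarized groups overlapped more than the resting ones. With WT addback only Nkx2-2 of the 10 genes had all libraries below NT, against 14.3% of all genes. With S586A 5 did (Bcas1, Nkx2-2, Sox10, Olig2 and Gpr17), against 22.3% of all genes. Gpr17 was at 0 in both S586A libraries against 17 counts in NT, at least 5.24-fold lower, and did not pass (adjusted p = 0.271, edgeR). Lhfpl3 and Sox8 had log2 differences of -0.05 and 0.24 with WT addback and -0.16 and 0.29 with S586A.

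Adding Smarcc2 back was then compared with vector directly. At rest 0 of 10 genes passed in edgeR, DESeq2 called 0, and 0.0143% of all genes were called. An unadjusted p under 0.05 in edgeR held for 2 of 10, both higher, against 2317 of all 20940 genes. Sox10 was counted 16 times in the 2 WT addback libraries and 0 times in the 3 vector libraries, at least 6.74-fold higher (adjusted p = 0.211, edgeR). Pdgfra was 2.95-fold higher in the mean (log2 difference 1.50, SE 0.84, adjusted p = 0.530, edgeR) and Cspg4 1.84-fold (0.87, SE 0.39, adjusted p = 0.418, edgeR). In these 3 genes both WT addback libraries were above all vector libraries, against 13.7% of all genes, and below both NT libraries. Lhfpl3 was the 1 gene with both WT addback libraries below all vector libraries, against 12.4% of all genes. Olig1 and Olig2 overlapped, with log2 differences of 0.12 (SE 0.55) and -0.27 (SE 0.55).

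Under KCl 0 of 10 genes passed between WT addback and vector in edgeR, DESeq2 called 0, and 0.00955% of all genes were called. An unadjusted p under 0.05 in edgeR held for 1 of 10, against 837 of all 20940 genes. Pdgfra, Bcas1 and Sox10 differed by 1.62 (SE 0.76), 1.65 (SE 0.82) and 1.71 (SE 0.88) on the log2 scale. Gpr17 (10 counts against 1, 7.68-fold, counting interval 1.09 to 333) and Nkx2-2 (9 counts against 1, 6.91-fold, interval 0.957 to 303) rest on few counts. The substitutions were set against the wild-type protein in the state in which each was sequenced. S586E against WT addback at rest gave 0 of 10 calls in edgeR and 0 in DESeq2, and 0% of all genes were called. In edgeR 2 of 10 had an unadjusted p under 0.05 (both lower), against 2696 of all 20940 genes in either direction. Sox10 (3 counts against 16), Pdgfra (-1.40, SE 0.82, adjusted p = 0.494) and Cspg4 (-0.89, SE 0.38, adjusted p = 0.334) were lower in value with S586E, and all S586E libraries were below both WT libraries for these 3 genes and for Nkx2-2 and Sox8 (5 of 10, against 16.4% of all genes). Lhfpl3 had all S586E libraries above both WT libraries, which was so for 14.9% of all genes. S586A against WT addback under KCl gave 0 of 10 calls in edgeR, 0 at an unadjusted p under 0.05, 0 in DESeq2, and 0% of all genes were called. Pdgfra differed by -0.49 (SE 0.77) and Olig1 by 0.30 (SE 0.55), both less than their SE.

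Depolarization itself moved no precursor gene past the threshold at DIV18. In NT 0 of 10 passed in edgeR, DESeq2 called 0, and 0.00955% of all genes were called. An unadjusted p under 0.05 in edgeR held for 4 of 10 (all lower), against 906 of all 20940 genes in either direction. All 10 log2 differences were below 0, with a median of -1.23 against 0.00 for all genes, and in 6 genes (Sox10, Gpr17, Pdgfra, Cspg4, Bcas1 and Sox8) both KCl libraries were below both resting ones, against 16.8% of all genes. Cspg4, at 13.89 and 21.34 CPM at rest and 3.84 and 8.38 CPM after 30 min of KCl, had a log2 difference of -1.53 (SE 0.40, adjusted p = 0.663, edgeR). Sox10 had -2.43 (SE 0.75, adjusted p = 0.994) and Pdgfra -1.75 (SE 0.71, adjusted p = 1.00), both in edgeR. The resting and the depolarized NT libraries are different cultures, and the spread within each group was wide for these genes.

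In the vector cultures KCl gave 0 of 10 calls in edgeR and 0 in DESeq2, and 0.0716% of all genes were called. There 3 of 10 had an unadjusted p under 0.05 in edgeR, against 2167 of all 20940 genes. In the WT addback cultures it gave 0 of 10 calls in edgeR, 0 at an unadjusted p under 0.05, 0 in DESeq2, and 0.0430% of all genes were called. The change with KCl was also compared between constructs. For vector against NT 0 of 10 genes passed in edgeR, 0 passed in DESeq2, and 0% of all genes were called. In edgeR 2 of 10 had an unadjusted p under 0.05, against 1845 of all 20940 genes. Cspg4 (2.08, SE 0.54) and Sox10 both had an adjusted p of 0.472. The mean of Cspg4 under KCl was 34.7% of that at rest in NT and 147% with vector, a difference that did not pass. For WT addback against NT 0 of 10 passed in edgeR (adjusted p = 1.00), 0 passed in DESeq2, and 0% of all genes were called. Here 3 of 10 had an unadjusted p under 0.05 in edgeR, against 620 of all 20940 genes.

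At DIV7, 1 of the 6 genes tested was called after KCl. Sox8 measured 3.40 and 3.75 CPM at rest and 1.72 and 1.93 CPM after KCl (log2 difference -0.97, SE 0.19, adjusted p = 0.0157, edgeR), where 9.67% of all 19822 genes tested were called lower. Olig1 was at 23.93 and 21.27 CPM at rest and 17.20 and 19.53 CPM after KCl (-0.30, SE 0.10, adjusted p = 0.0862, edgeR), so that both KCl libraries lay below both resting ones without passing. Lhfpl3 had the opposite sign, with 33.19 and 27.91 CPM at rest and 43.84 and 34.76 CPM after KCl (0.36, SE 0.13, adjusted p = 0.0995, edgeR). Cspg4 measured 2.18 and 1.97 CPM at rest and 1.72 and 1.60 CPM after KCl, which did not overlap and did not pass (-0.32, SE 0.22, adjusted p = 0.364, edgeR). Both KCl libraries were below both resting ones for these 3 genes (Sox8, Olig1 and Cspg4), which was so for 30.7% of all genes, and the libraries of Olig2 (-0.24) and Pdgfra (-0.16) overlapped. DESeq2 called none of the 6, and the call of Sox8 was lost without the second resting or the first KCl library.

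Across DIV18 an NT library stood highest for most of the genes, while the highest KO library differed from gene to gene. The second resting NT library was the highest of all 20 for 8 genes, against 8.83% of all genes, and both resting NT libraries were above all 16 KO libraries for 8, against 3.67%. The second depolarized NT library was above all 16 KO libraries for 9 genes, against 9.13% of all genes, but the first for 1, Nkx2-2, against 6.28%. The second exceeded the first 9.50-fold for Pdgfra, 3.65-fold for Olig1, 2.97-fold for Sox10 and 2.18-fold for Cspg4. For Gpr17 the ratio was 18.0 but rested on 16 counts against 1, and for Sox8 it was 0.945. Over the 16 KO libraries, Pdgfra lay between 0.06 and 3.15 CPM.

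**Figure D3:**
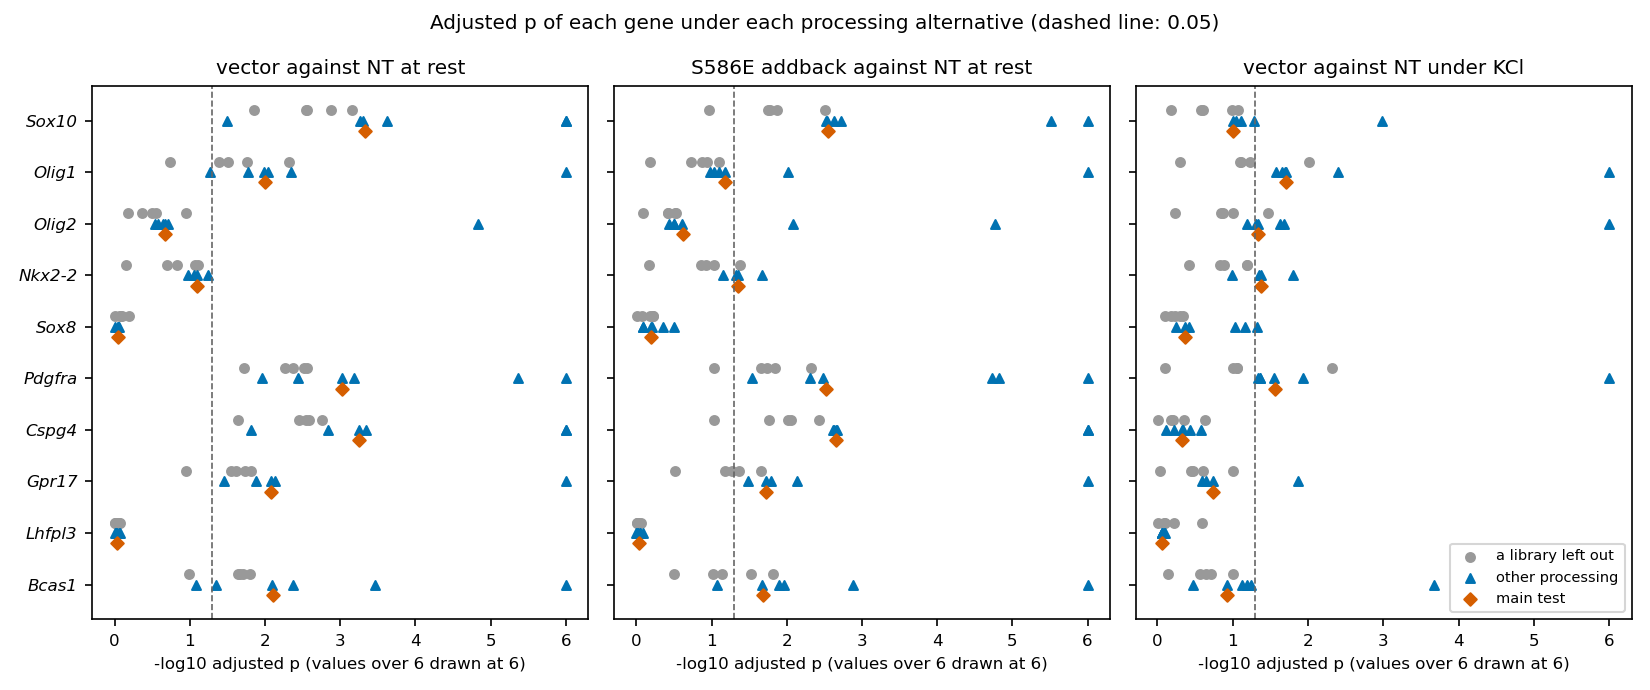
Adjusted p on a −log10 scale (drawn up to 6) of each of the 10 genes under each way of analysing the data, for vector and S586E against NT at rest and vector against NT under KCl; diamonds are the test as reported, triangles other processing, circles a library left out, and the dashed line marks 0.05. Pdgfra, Sox10 and Cspg4 stay past the line in every alternative for vector against NT at rest, and for vector under KCl all genes drop below it without the second NT library.

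How alike the genes were was measured over the 20 DIV18 libraries as Pearson's r with the mean of the 10 standardised log2(CPM + 0.5) profiles, given as a description because libraries of a group share their construct. For each of the 10 genes that mean includes its own profile, which raises its r. Their values are therefore not comparable with those of other genes. Pdgfra (0.965), Gpr17 (0.953), Sox10 (0.930) and Cspg4 (0.906) were closest to the common profile, followed by Olig1 and Bcas1 (both 0.887), Nkx2-2 (0.882) and Olig2 (0.803). Lhfpl3 (0.246) and Sox8 (0.230) did not share it. Of 15128 other genes with a mean of at least 1 CPM, the 10 most alike were Rrm2 (r = 0.944), Top2a (0.928), Itgav (0.923), Mki67 (0.910), Hist2h3c2 (0.896), Elovl5 and Col11a1 (both 0.888), Sema4b (0.885), Pros1 (0.883) and Scd1 (0.882). Top2a, Mki67 and Rrm2 are needed for or mark cell division, and Scd1 and Elovl5 make fatty acids. Mki67 measured 7.52 and 16.1 CPM in resting NT and 0.317 to 1.53 CPM with vector at rest (log2 difference -3.73, adjusted p = 0.00511, edgeR). As it was picked here for following the profile of the 10 genes in these libraries, this test is not independent of that choice.

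Further genes of the lineage were taken from lists. With vector against NT, an unadjusted p under 0.05 in edgeR held for 4263 of all 20940 genes at rest and 3466 under KCl. The counts given below for this and the other lists are to be read beside these. Of 16 further genes expressed by precursors, 14 were tested. At rest 0 passed with vector against NT in edgeR, with 6 at an unadjusted p under 0.05, all lower, and 1 called lower by DESeq2, and the median log2 difference was -0.66. Under KCl 1 was called lower, Ptprz1, a receptor phosphatase shared with astrocytes (-1.30, SE 0.34, adjusted p = 0.0467, edgeR). Matn4 (-1.65, SE 0.49, adjusted p = 0.0523) and Vcan (-0.75, adjusted p = 0.102) were lower in value at rest, while Pcdh15 had a log2 difference of 0.24 (adjusted p = 0.519, edgeR). Their summed TPM was 66.8 and 71.1 in resting NT and 47.9 to 56.2 with vector.

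Of 16 genes of maturing and myelinating cells, 11 were tested, and 1 was called lower with vector at rest: Cldn11, a tight junction protein of myelin, with 62 counts in NT and 2 with vector (-4.97, SE 1.07, adjusted p = 0.0102, edgeR). Under KCl none of the 11 passed in edgeR, with 3 lower and 1 higher at an unadjusted p under 0.05, and DESeq2 called 1. Mbp, the myelin basic protein, whose gene also has transcripts outside this lineage, was at 20.4 to 27.6 TPM in resting NT and 25.8 to 26.6 TPM with vector (log2 difference 0.25, SE 0.14, adjusted p = 0.332, edgeR). The median log2 difference of this list was -0.45 at rest and -0.40 under KCl. The summed TPM ran from 34.6 to 39.3 in resting NT and from 33.7 to 36.1 with vector.

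Of 14 ligands and receptors of growth signals to precursors, 13 were tested and 2 were called lower with vector at rest: Erbb3, a neuregulin co-receptor (-1.86, SE 0.51, adjusted p = 0.0385, edgeR), and Fgf2, a growth factor (-1.05, SE 0.18, adjusted p = 0.00252, edgeR). Under KCl 0 passed in edgeR, with 1 lower and 1 higher at an unadjusted p under 0.05 and 1 in DESeq2. Pdgfa, the ligand of Pdgfra, was at 22.73 and 23.63 CPM in resting NT and at 22.03 to 23.69 CPM with vector, so that ligand levels overlapped where the receptor's did not (log2 difference -0.02, SE 0.14, adjusted p = 0.948, edgeR).

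Some markers of astrocytes and of dividing cells were also lower. With vector against NT, 3 of 10 astrocyte markers were called lower at rest (Slc1a2, Aldoc and Fgfr3) and 3 under KCl (Slc1a2, Aqp4 and S100b), with medians of -0.80 and -0.996, and their summed TPM was 361 and 363 in resting NT, 118 to 258 with vector at rest, 283 and 385 in depolarized NT and 170 to 181 with vector under KCl. Of 7 proliferation genes 3 were called lower at rest (Cdk1, Top2a and Mki67), with a median of -1.18, and 0 under KCl in edgeR, with 2 at an unadjusted p under 0.05, 1 in DESeq2 and a median of -1.52. Of 7 neural progenitor markers 0 were called at rest in edgeR, with 4 at an unadjusted p under 0.05, all lower, and 0 in DESeq2, and 1 under KCl (Eomes). Their summed TPM was 110 and 111 in resting NT and 23.2 to 87.5 with vector. Of 10 neuron markers 1 was called higher at rest (Slc17a6, 0.84, adjusted p = 0.00292) and 1 lower under KCl (Snap25, -0.36, adjusted p = 0.0467), with summed TPM of 1841 and 1871 in resting NT and 1618 to 1831 with vector. The part of these other cell types in the result was not tested.

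Of 8 microglial markers 4 were tested, and Csf1r was called lower at rest (-1.31, SE 0.32, adjusted p = 0.0207, edgeR) and none under KCl, with 1 at an unadjusted p under 0.05 and 1 in DESeq2. Of 12 markers of vessels and fibroblasts 8 were tested, and Rgs5, a pericyte gene, was called higher at rest (1.65, SE 0.32, adjusted p = 0.00558, edgeR) and none under KCl, with 2 at an unadjusted p under 0.05 and 0 in DESeq2. Of 7 interneuron markers none passed in either state in edgeR, with 0 at rest and 3 under KCl at an unadjusted p under 0.05 and 0 and 1 in DESeq2. Schwann cells of peripheral nerves also express Sox10, and of 4 of their markers 2 were tested. Their summed TPM was 0.773 and 1.07 in resting NT and 0.330 to 0.896 with vector at rest, and 0 passed in edgeR in either state, with 0 at an unadjusted p under 0.05 and 0 in DESeq2. The third vector library at rest had the lowest summed TPM of astrocyte and progenitor markers of all DIV18 libraries (118 and 23.2), and without it all 6 calls of precursor genes at rest held.

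**Figure D4:**
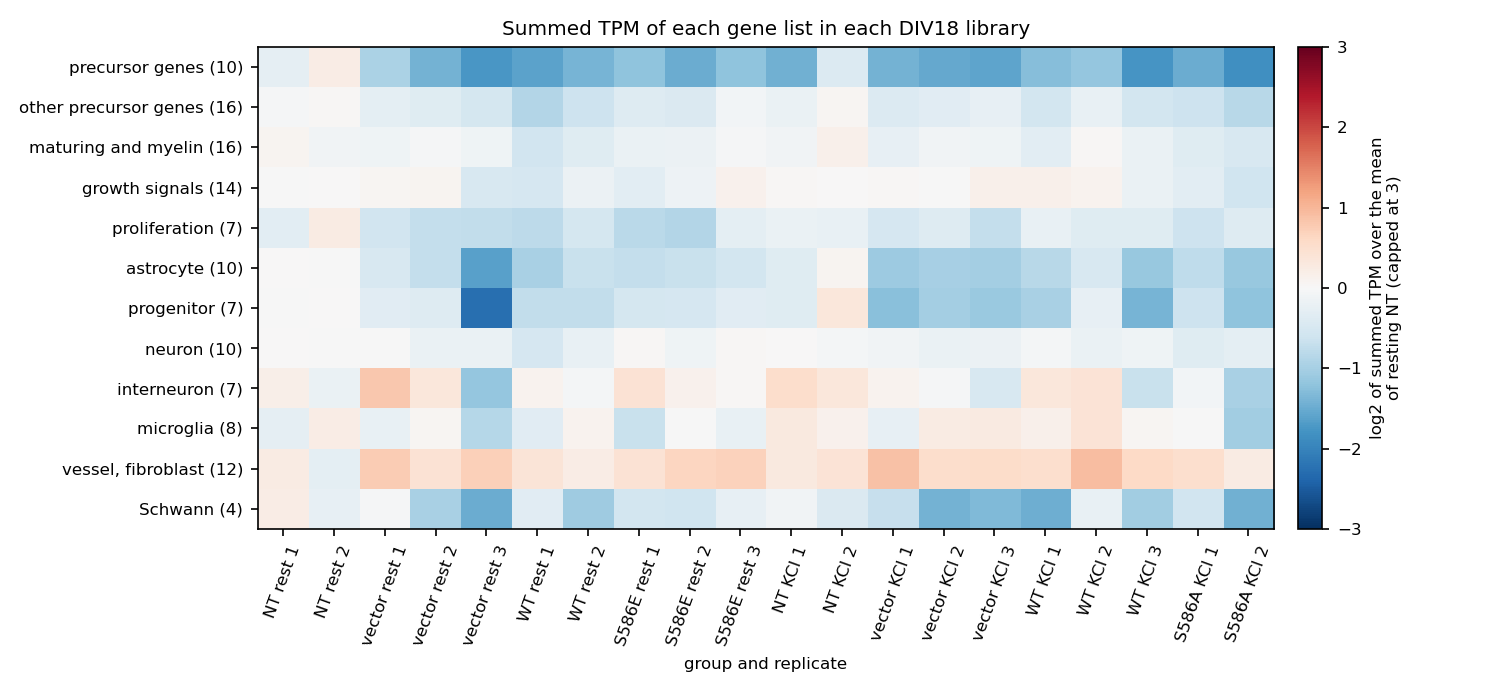
Heat map of the summed TPM of each marker list (rows) in each DIV18 library (columns), as log2 of its ratio to the mean of the 2 resting NT libraries (colour, limited to 3 in each direction). The 10 precursor genes, astrocyte, progenitor and proliferation markers are lower in most KO libraries than in resting NT. The neuron markers have a mean of 1856 TPM in resting NT and 1846 with S586E, but 1443 with WT addback at rest and 1476 with S586A.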

How the data were processed

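RNA was sequenced from 24 cultures in 10 groups, taken from the labels. Reads were handled by the authors with FastQC, cutadapt and kallisto, per the submitters' processing notes, whose versions, genome build and annotation are not given in the sources used here. Per the file headers, the deposited tables hold 142552 transcripts with length, effective length, estimated count and TPM. Of these, 99.2% matched GENCODE M21 (GRCm38), and the 1123 unmatched ones held at most 0.467% of a library's counts and were left out. The estimated counts of a gene's transcripts were added up and rounded to whole numbers. The TPM values deposited by the authors were summed per gene to compare levels between genes, and the deposited effective length served only for length offsets.

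The tests used edgeR 4.0.16 in R 4.3.3 (quasi-likelihood F test, TMM, filterByExpr, Benjamini-Hochberg). All 20 libraries of DIV18 entered 1 fit with 8 groups (20940 genes, 12 residual degrees of freedom, biological coefficient of variation 14.6%) and the 4 DIV7 libraries alone (19822 genes, 2 degrees of freedom, 6.44%). CPM are counts scaled by the TMM library size. Ratios from groups of 0 to 3 counts use the summed counts, a floor of 3 counts and exact binomial intervals, which cover counting error only; medians of fitted differences were the same with these ratios in place. The code was tested on simulated data.

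The 10 genes, the lists and the tests were chosen with earlier results of these data known. The genes named are the 10, Smarcc2, list genes called with vector against NT, and the 10 most alike genes; Matn4, Vcan, Pcdh15, Mbp and Pdgfa were named after their values were seen. Other settings tried were DESeq2 1.42.0, median-of-ratios size factors, no filter, the replicate number as a block, length offsets, only the groups compared, and each library left out. Same-numbered libraries deviated together across genes, with every r above 0.1 over 3 pairs, for several pairs of groups. Of those tested, these were vector under KCl against rest (0.131 to 0.404) and WT addback against vector under KCl (0.279 to 0.464). Vector at rest with WT addback under KCl (0.184 to 0.611) was not tested. Nor was S586E at rest with vector at rest (0.260 to 0.386) or under KCl (0.146 to 0.403). Groups sharing 2 numbers had r from -0.320 to 0.367, with 0.318 for WT addback against NT at rest and 0.349 at DIV7. Promoters are from RefSeq (GRCm38.p6).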

Additional observations from a re-analysis of the deposited data

How the results depend on the processing

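The counts of called genes depended on which libraries and which filter were used. For WT addback against NT at rest (0 called) they were 3 in DESeq2, 3 with the replicate block, 3 with only the groups compared, 1 with length offsets, 7 without the low-count filter and 5 with both states averaged, an alternative chosen after seeing the data. For vector against NT under KCl (4) they were 2 with length offsets, 7 without the filter and 0 to 3 with a library left out, and the block gave 5, the fifth being Sox8, called higher with vector (0.72, adjusted p = 0.0476, edgeR). Leaving out a library gave 3 to 6 for vector at rest (6), 0 to 6 for S586E (6) and 0 to 2 for KCl at DIV7 (1), where DESeq2 gave 0 and the block 3 (Sox8, Olig1 with adjusted p = 0.0182 and, higher, Lhfpl3 with adjusted p = 4.31e-04, in edgeR). Without the filter the count was 3 for WT addback and 4 for S586A against NT under KCl, 3 for WT addback against vector at rest and 3 under KCl, 3 for S586E against WT addback, 4 for KCl in NT, 2 for KCl in vector, 3 and 1 for the vector and WT addback interactions, and 3 at DIV7. Adjusted p reached 3.61e-59 in that setting, and the cause of these changes was not tested.

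The replicate block changed no other count, including those for KCl in vector and for WT addback against vector under KCl. Crossing the NT numbers (r = -0.232 as numbered) gave 0 for KCl in NT. Over all genes, calls ranged from 100 to 2016 for vector, 2 to 378 for WT addback and 3 to 1582 for S586E at rest, and from 37 to 1438 for vector, 1 to 704 for WT addback and 4 to 653 for S586A under KCl. Signs turned in genes that were not called. Sox8 in vector against NT at rest was 0.0674 with the block, 0.00201 with length offsets and -0.31 to 0.14 with a library left out. Leaving out libraries gave -0.133 to 0.0515 for Lhfpl3 with vector at rest, and -0.0306 to 0.155 for Lhfpl3 with S586E, and -1.04 to 0.0855 for Cspg4 and -0.48 to 0.40 for Lhfpl3 with vector under KCl, and -2.57 to 0.67 for Pdgfra, -0.92 to 0.20 for Cspg4, -2.48 to 1.53 for Gpr17, -0.42 to 0.45 for Lhfpl3 and -1.51 to 0.10 for Bcas1 with WT addback under KCl, and -3.06 to 0.18 for Pdgfra, -1.31 to 0.000859 for Cspg4, -0.54 to 0.34 for Lhfpl3 and -0.12 to 0.63 for Sox8 with S586A. An arm left with 1 library was assumed to vary like the other groups. Depth limits Nkx2-2 and Gpr17, which had at most 1.28 and 3.44 CPM in any DIV18 library.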

Other observations

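Among the other lists, the S586E cultures at rest had 2 of 14 further precursor genes called lower than NT, Dll3 (-1.25, SE 0.27, adjusted p = 0.0242) and Vcan (-1.05, SE 0.26, adjusted p = 0.0396), where vector had none at rest, a difference that was not tested. Mki67 (-2.77, adjusted p = 0.0345) and Top2a (-2.80, adjusted p = 0.0422) were called lower, as was Fgf2 (-0.88, adjusted p = 0.0187), all in edgeR. Of the 10 astrocyte markers 0 passed in edgeR in S586E cultures and 0 in DESeq2. In edgeR 5 had an unadjusted p under 0.05, all lower, against 3717 of all 20940 genes in either direction.

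The Nkx2-2 promoter held 3 CANNTG matches and that of Olig2 held none, but 1 ACAATG match on the minus strand. No promoter of the 6 matched genes held ACAAAG.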
